A study of Homo sapiens with 6 samples.

Results

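The genes described here are 10 members of the Eph receptor and ephrin family in HSC-4 cells, an established human cell line from a squamous cell carcinoma of the mouth. They were chosen by symbol, from a list of names, among the 58884 Ensembl genes of the deposited count tables, and all 10 were found. Of these members, 6 encode receptors (*EPHA1*, *EPHA2*, *EPHA4*, *EPHB2*, *EPHB3*, *EPHB4*) and 4 encode ligands (*EFNA1*, *EFNA5*, *EFNB1*, *EFNB2*). RNA was sequenced from 3 libraries of cells exposed to 50 µM DAPT for 24 h and from 3 control libraries. DAPT inhibits γ-secretase, the protease complex in the membrane that frees the signalling part of Notch receptors. The study's text gives the controls as cells with the DMSO vehicle, whereas their count columns carry the letters GM, which nothing explains, so an effect of the vehicle cannot be told apart from that of DAPT if these letters stand for growth medium alone. HSC-4 is one cell line, and the labels do not say whether the 3 replicates of a group came from separate cultures, so that p-values measure the spread between these libraries, which may be technical.

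Eph receptors are the largest family of receptor tyrosine kinases, and ephrins are their membrane-bound ligands, so that signalling takes place where cells touch. Ephrin-A ligands are held in the membrane by a lipid anchor and bind mainly EphA receptors, whereas ephrin-B ligands span the membrane and bind mainly EphB receptors. Binding sends a forward signal into the receptor's cell and, from ephrin-B in particular, a reverse signal into the ligand's cell. In epithelia the system is known for cell repulsion, tissue boundaries and cell positioning, and ephrin-B proteins and several Eph receptors are cut by metalloproteases and then by γ-secretase.

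With DAPT, the transcripts of 3 of the 4 ligands and 1 of the 6 receptors fell, and no member rose. *EFNB1* changed most, by a fall of 35.8%, followed by *EFNB2* with 19.9% and *EFNA1* with 15.9%, and *EPHA1* was called at the edge of the threshold with 12.9%. The other 6 members were not called. These values are changes in the normalised count, in CPM (reads of a gene scaled to a common library size after TMM normalisation), and a gene is called where the quasi-likelihood test of edgeR gives an adjusted p-value below 0.05 (Benjamini-Hochberg, 15001 genes). The count of 4 lower members of 10 stands beside 18% of all tested genes that were called lower, 17.2% called higher and 35.2% called in either direction, so calls were common in this comparison. Over all genes 2574 were called higher and 2707 lower, and scaling by library size alone turned this split to 3445 higher and 2156 lower. The count of higher members was also 0 at an unadjusted p-value under 0.05, with DESeq2 and with limma-voom. None of the members changed 2-fold or more, a size that 2.37% of all tested genes reached with a call.

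All 10 members passed the filter on low counts, with 97 to 2816 reads per library. In 5 of them every DAPT library lay below every control library (*EFNA1*, *EFNA5*, *EFNB1*, *EFNB2* and *EPHA4*), against 22.6% of all tested genes, and in none did every DAPT library lie above, against 23.6% (46.2% of all tested genes had groups without overlap in either direction). The median log2 fold change was -0.18 for the 10 members, -0.28 for the 4 ligands and -0.05 for the 6 receptors, against 0.01 for all tested genes.

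**Figure D1:**
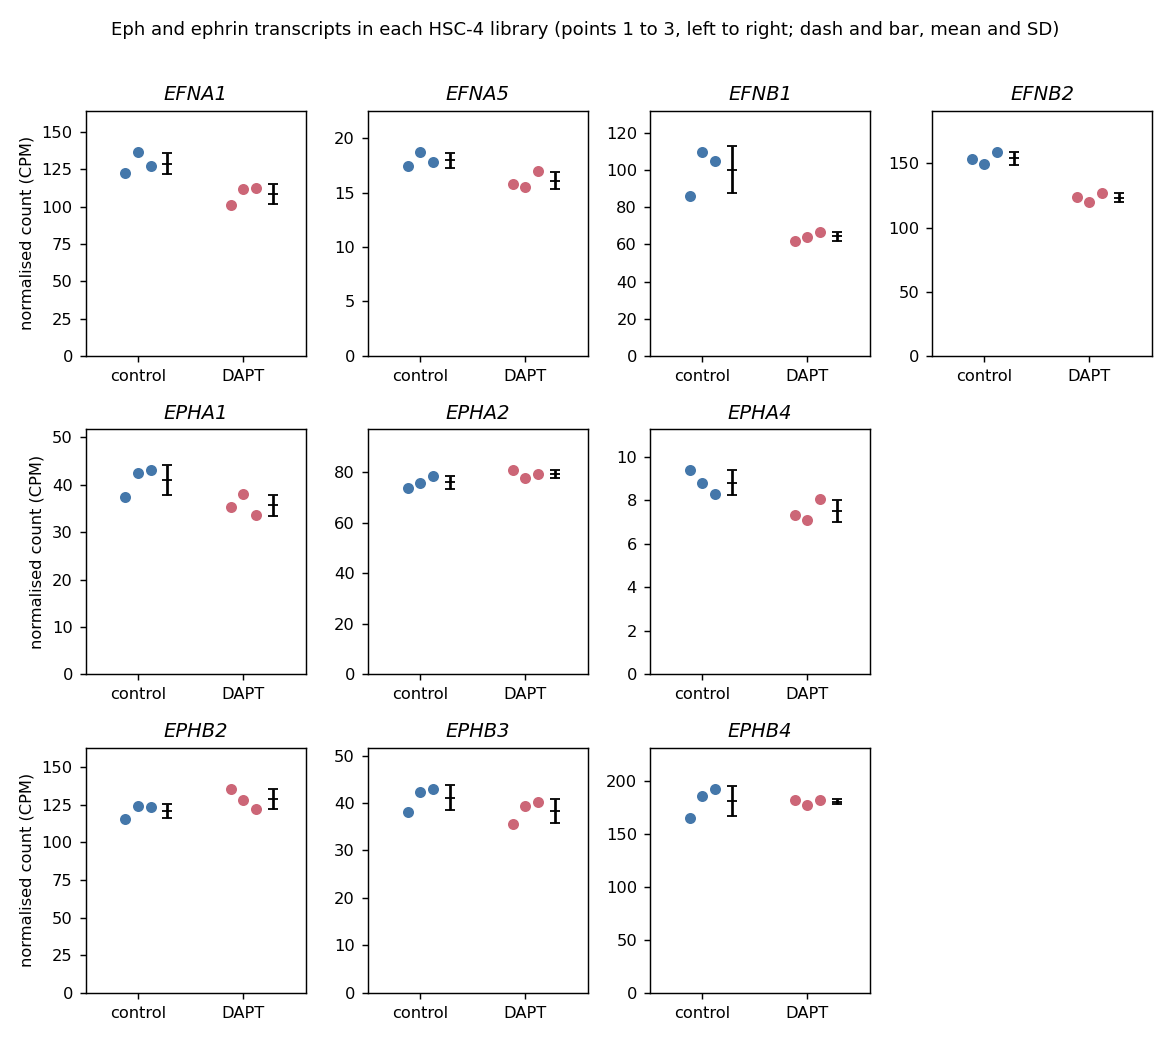
Normalised count in CPM (y axis, from 0, its scale set per gene) of the 10 members in each library, ordered 1 to 3 from left to right within control and DAPT, with the mean as a dash and the SD as a bar (n = 3). *EFNB1* lies between 86.0 and 109.9 CPM in the controls and between 62.0 and 67.0 CPM with DAPT, whereas the control and DAPT points of *EPHB4* overlap.

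The libraries held 12276313 to 16317672 counts assigned to genes, at which 3 reads correspond to 0.184 to 0.244 CPM, a floor that covers counting error only. The treatment was checked on 2 target genes of Notch. *HES1*, a transcriptional repressor, went from 42.4, 50.2 and 48.1 CPM to 27.9, 27.2 and 27.2 CPM, and *HEY1*, another such repressor, fell by 74.6%. Control replicate 1 stood apart from the other libraries in its fibroblast markers, with a summed level of 551 CPM over 6 genes (*COL1A1*, *COL1A2*, *COL3A1*, *PDGFRB*, *LUM*, *DCN*), against 58.2 and 57.1 CPM in the other controls and 49.9 to 55.1 CPM with DAPT. That library had 329 reads of *DCN*, against 0 to 2 in each other library. The same library was the lowest of the controls for 8 of the 10 members and the highest for *EPHA4*, and without it the same 4 members were called. Of 8 squamous markers, 6 (*KRT5*, *KRT14*, *KRT6A*, *KRT17*, *TP63*, *SFN*) fell with the treatment, *CDH1* rose and *DSG3* was not called. Among all tested genes 18% were called lower and 35.2% in either direction. The summed level of the 8 markers was 5213 to 5426 CPM in the controls and 3221 to 3366 CPM with DAPT. *KRT14*, a basal keratin, was at 3.53 CPM or less throughout. The part of these marker shifts in the changes of the family was not tested, and in bulk RNA fewer cells of a type and less RNA per cell cannot be told apart. Endothelial markers summed to 1.24 to 1.80 CPM in the controls and 2.41 to 2.98 CPM with DAPT. Among them *CDH5*, the gene of VE-cadherin, rose from 0.327 ± 0.17 to 1.80 ± 0.484 CPM (SD, n = 3 each), from 2 to 7 reads per control library and 19 to 36 per DAPT library. Only 2 of the 6 endothelial markers were tested, and the other went the opposite way (log2 fold change -0.44) and was not called. Of the immune markers, *CD14* fell from 11.7 ± 1.2 to 9.41 ± 0.78 CPM (SD, n = 3 each), *PTPRC* and *CD68* had at most 3 reads and *CD3E* had 0 in every library. The call of *CD14* was lost with DESeq2, with limma-voom and with scaling by library size alone. The part of these shifts too was not tested.

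*EFNB1* encodes ephrin-B1, a transmembrane ligand of EphB receptors whose loss of function causes a craniofacial syndrome. It lies on the forward strand of chromosome X, at chrX:68829021-68842160 of GRCh38, and no exon of another gene overlaps its exons. The normalised counts were 86.0, 109.9 and 105 CPM in control replicates 1 to 3 and 62.0, 64.0 and 67.0 CPM in the DAPT libraries. The groups did not overlap, the DAPT libraries lay close together and control replicate 1 was the lowest control. The means were 100.3 ± 12.6 and 64.3 ± 2.49 CPM (SD, n = 3 each). On the log2 scale the difference was -0.64 (SE 0.08), with an adjusted p-value of 6.67e-06 (edgeR, Benjamini-Hochberg). The 95% interval of the change ran from -42.5% to -28.2%. By p-value the gene was number 552 of the 15001 tested genes, and 4.92% of tested genes had a lower log2 fold change. Without control replicate 1 the log2 fold change was -0.74.

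*EFNB2* encodes ephrin-B2, the transmembrane ligand best known from arteries and the main partner of EphB4. It is on the reverse strand at chr13:106489731-106535662. The control libraries had 154, 149 and 159 CPM, and the DAPT libraries had 123, 119.7 and 127 CPM. The highest DAPT library stayed well below the lowest control, and the replicates of each group differed little, with coefficients of variation of 3.18% in the controls and 2.99% with DAPT. The log2 fold change was -0.32 (SE 0.05, adjusted p-value 4.03e-05, edgeR with Benjamini-Hochberg), with a 95% interval of the change from -25.5% to -13.9%. Of its exonic bases, 26.2% are shared with a gene on the opposite strand, ENSG00000284966, which had 5 to 14 reads per library under counting by strand, against 1640 to 2475 reads for *EFNB2*.

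*EFNA1* encodes ephrin-A1, a lipid-anchored ligand that was first described as a gene induced by tumour necrosis factor and that binds EphA2 with high affinity. It is on the forward strand at chr1:155127876-155134899. The normalised counts were 123, 137 and 127 CPM in the controls and 101, 112 and 113 CPM with DAPT. Again no DAPT library reached the lowest control, and the gap between the groups was narrower than for both ephrin-B genes. The log2 fold change was -0.25 (SE 0.06, adjusted p-value 0.00169, edgeR with Benjamini-Hochberg), and the 95% interval of the change was -22.5% to -8.68%.

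*EFNA5* encodes ephrin-A5, a lipid-anchored ligand known for guiding axons, and was the least abundant ligand among the members. It is on the reverse strand at chr5:107376889-107670937 and had 213 to 280 reads per library. The controls had 17.4, 18.7 and 17.8 CPM and the DAPT libraries 15.8, 15.5 and 16.9 CPM. The groups did not overlap, but the difference did not pass the test (log2 fold change -0.16, SE 0.09, adjusted p-value 0.165, edgeR with Benjamini-Hochberg). Its 95% interval, from -21.2% to 1.54%, includes the size of the change in *EFNA1*.

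The sequences before the starts of the 3 ligands that fell are shown because Notch acts on transcription through the DNA-binding protein RBPJ, and that of *HES1* is shown beside them as a known Notch target. Each is the 250 bases upstream of the RefSeq start (GRCh38.p14), written 5′ to 3′ on the gene's strand, and no annotated exon overlaps them. Capitals mark, on either strand, the RBPJ core TGGGAA, the N-box CACNAG and the GC box GGGCGG.
EFNB1, chrX:68828771-68829020, forward strand: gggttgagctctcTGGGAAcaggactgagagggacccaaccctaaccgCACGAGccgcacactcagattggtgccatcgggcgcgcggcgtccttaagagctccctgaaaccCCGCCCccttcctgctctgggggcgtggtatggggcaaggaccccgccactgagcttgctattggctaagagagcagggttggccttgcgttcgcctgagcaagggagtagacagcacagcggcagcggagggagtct
EFNB2, chr13:106535663-106535912, reverse strand: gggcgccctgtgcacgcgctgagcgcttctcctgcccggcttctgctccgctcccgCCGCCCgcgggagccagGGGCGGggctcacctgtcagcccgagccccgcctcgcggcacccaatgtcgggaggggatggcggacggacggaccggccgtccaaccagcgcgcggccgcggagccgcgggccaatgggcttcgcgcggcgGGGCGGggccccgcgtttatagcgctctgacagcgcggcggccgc
EFNA1, chr1:155127626-155127875, forward strand: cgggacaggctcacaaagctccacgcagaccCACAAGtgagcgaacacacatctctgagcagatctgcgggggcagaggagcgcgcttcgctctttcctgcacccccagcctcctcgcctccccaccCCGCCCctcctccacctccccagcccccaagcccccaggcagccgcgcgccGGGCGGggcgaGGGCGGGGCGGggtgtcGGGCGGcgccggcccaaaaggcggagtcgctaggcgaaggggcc
HES1, chr3:194135898-194136147, forward strand: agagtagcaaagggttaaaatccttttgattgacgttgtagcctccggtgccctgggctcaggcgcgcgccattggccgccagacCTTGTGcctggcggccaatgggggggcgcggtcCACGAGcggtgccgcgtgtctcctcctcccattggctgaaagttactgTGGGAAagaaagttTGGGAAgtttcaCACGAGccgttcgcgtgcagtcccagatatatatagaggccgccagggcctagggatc

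The motifs were searched on both strands in the 300 bases from 250 before to 50 after each RefSeq start. In the shown bases of *EFNB1* the RBPJ core begins 237 bases before the start, and *HES1* has it 84 and 70 bases before its start. *EFNB2* has no RBPJ core in its window, and that of *EFNA1* begins at base 44 after the start, outside the bases shown. *EPHA1* was the only other member with the core. The 3 members with it stand beside 24.0% of 35116 RefSeq promoters that hold it. Units differ here and for the motifs below. Members are counted by gene, with a match in any window of the gene, whereas the shares count single promoters. *EPHA4* and *EPHB2* have several windows. The N-box, a sequence bound by HES proteins, was in the windows of *EFNA1*, *EFNB1* and *EPHA4* and in 38.0% of all promoters. The E-box CACGTG and the AP-1 motif TGANTCA were in no member's window and in 7.26% and 7.71% of all promoters, whereas the GC box was in the windows of all 10 members and in 45.0% of promoters. A match is a string of letters in a window and not an occupied site.

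Among the EphA receptors, *EPHA2* was the most abundant and did not pass the test. EphA2 is the main ephrin-A1 receptor of epithelial cells and is often abundant in carcinomas. It is encoded on the reverse strand at chr1:16124337-16156069. The normalised counts were 73.7, 75.6 and 78.5 CPM in the controls and 80.7, 77.7 and 79.1 CPM with DAPT. The groups overlapped, and the log2 fold change of 0.06 (SE 0.05) had an adjusted p-value of 0.398 in edgeR's test with Benjamini-Hochberg adjustment. The 95% interval of the change was -3.38% to 12.7%.

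*EPHA1*, the first Eph receptor to be cloned, is on the reverse strand at chr7:143390289-143408856. Its normalised counts were 37.4, 42.5 and 43.1 CPM in the controls and 35.3, 38.0 and 33.7 CPM with DAPT. One DAPT library (38.0 CPM) lay above the lowest control, control replicate 1 (37.4 CPM), so the groups overlapped although the gene was called. The log2 fold change was -0.20 (SE 0.08), and the adjusted p-value was 0.0479 (edgeR, Benjamini-Hochberg). The call was lost without control replicate 2 (adjusted p-value 0.135), control replicate 3 (0.15), DAPT replicate 1 (0.102) or DAPT replicate 3 (0.183), and also with DESeq2 (0.0885) and limma-voom (0.0543), while without control replicate 1 the log2 fold change was -0.26 with an adjusted p-value of 0.00468 (edgeR). Its exons share 1.75% of their bases with *ZYX* on the opposite strand.

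*EPHA4* encodes a receptor that binds both ephrin classes, and it had the fewest reads of the members, 97 to 151 per library. It is on the reverse strand at chr2:221418027-221574202. The controls had 9.38, 8.80 and 8.27 CPM, and the DAPT libraries had 7.33, 7.08 and 8.05 CPM. The groups did not overlap, yet the log2 fold change of -0.24 (SE 0.12) had an adjusted p-value of 0.127 (edgeR, Benjamini-Hochberg). At this depth counting alone gives an error of 8.97% in a control library of average depth, and the 95% interval of the change, -29.0% to 0.643%, includes the falls of *EFNA1* and *EFNB2*.

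No EphB receptor was called with edgeR, DESeq2 or limma-voom, and at an unadjusted p-value under 0.05 the count in edgeR was also 0. *EPHB4*, the receptor of ephrin-B2 known from veins and also present in epithelia, is on the reverse strand at chr7:100802565-100827523. It had 165, 186 and 193 CPM in the controls and 183, 178 and 182 CPM with DAPT. The DAPT libraries fell inside the range of the controls, whose coefficient of variation was 8.04% against 1.51% with DAPT. The log2 fold change was -0.0031 (SE 0.06, adjusted p-value 0.973, edgeR with Benjamini-Hochberg), and its sign turned under some alternatives. The 95% interval, -7.86% to 8.06%, does not include the size of the fall in *EFNB1*, *EFNB2* or *EFNA1*.

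*EPHB2*, a receptor known for sorting cells along the intestinal crypt, is on the forward strand at chr1:22710839-22921500. The controls had 116, 124 and 123 CPM, and the DAPT libraries had 136, 128 and 122 CPM. DAPT replicate 1 was the highest library and DAPT replicate 3 lay among the controls. The log2 fold change of 0.09 (SE 0.05) had an adjusted p-value of 0.211 (edgeR, Benjamini-Hochberg), but scaling by library size alone gave 0.14 with 0.0471, while it moved the median log2 fold change of all genes from 0.01 to 0.06. *EPHB3*, which acts beside *EPHB2* in the crypt, is on the forward strand at chr3:184561785-184582408. Its normalised counts were 38.1, 42.3 and 43.0 CPM in the controls and 35.5, 39.3 and 40.3 CPM with DAPT. These groups overlapped, and the log2 fold change was -0.10 (SE 0.08, adjusted p-value 0.323, edgeR with Benjamini-Hochberg), with -0.15 without control replicate 1 and -0.05 without DAPT replicate 1.

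**Figure D2:**
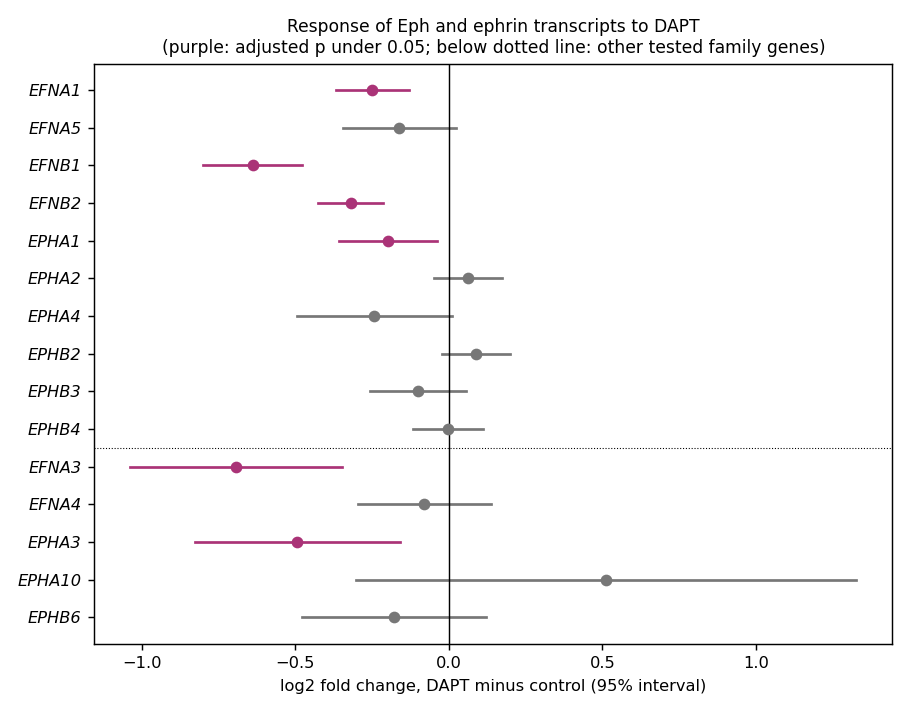
Log2 fold change, DAPT minus control (x axis), with its 95% interval as a bar, for the 10 members and, below the dotted line, the 5 other tested genes of the family, with called genes in purple. The intervals of *EFNB1*, *EFNB2*, *EFNA1* and *EPHA1* lie below 0, as do those of *EFNA3* and *EPHA3*.

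Levels of different genes were compared per length, as CPM per kilobase of exonic sequence. On this scale *EFNA1* was the most abundant member, at 59.5 ± 3.31 in the controls and 50.1 ± 2.97 with DAPT (SD, n = 3 each). Next in the controls were *EFNB2* at 30.7 ± 0.976, *EFNB1* at 30.4 ± 3.81 and *EPHB4* at 28.2 ± 2.26 CPM per kilobase, and neighbours in this order overlapped between libraries. With DAPT the levels were 24.6 ± 0.735 for *EFNB2*, 19.5 ± 0.755 for *EFNB1* and 28.1 ± 0.423 for *EPHB4*, so that *EPHB4* lay above both ephrin-B genes in every library. *EPHA2* followed at 18.3 in the controls and 19.1 CPM per kilobase with DAPT. *EPHB2*, *EPHB3* and *EPHA1* lay between 8.73 and 9.67 in the controls, where *EPHB2* overlapped with *EPHB3* and *EPHB3* with *EPHA1*. *EFNA5* was at 3.13 and *EPHA4*, the least abundant member, at 1.17 CPM per kilobase.

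Summed over each class, the ligands decreased and the receptors stayed within the range of the controls. The 4 ligands together had 116, 129 and 125 CPM per kilobase in the controls and 92.8, 97.6 and 100.5 with DAPT, and the mean fell by 21.6%. The 6 receptors had 70.3, 76.6 and 78.5 CPM per kilobase in the controls and 75.0, 74.3 and 74.2 with DAPT, and the mean fell by 0.827%. The ratio of summed ligands to summed receptors was 1.66, 1.69 and 1.59 in the controls and 1.24, 1.31 and 1.35 with DAPT, with no overlap. Within these 4 ligands, the summed level of *EFNB1* and *EFNB2* fell by 27.8% and that of *EFNA1* and *EFNA5* by 15.5%. Outside these sums, *EFNA4* was at 11.5 in the controls and 10.8 CPM per kilobase with DAPT and was not called. *EFNA3*, also outside them, was at 2.65 and 1.64 CPM per kilobase and was called lower. These sums describe RNA and are led by the most abundant genes, *EFNA1* among the ligands and *EPHB4* and *EPHA2* among the receptors.

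**Figure D3:**
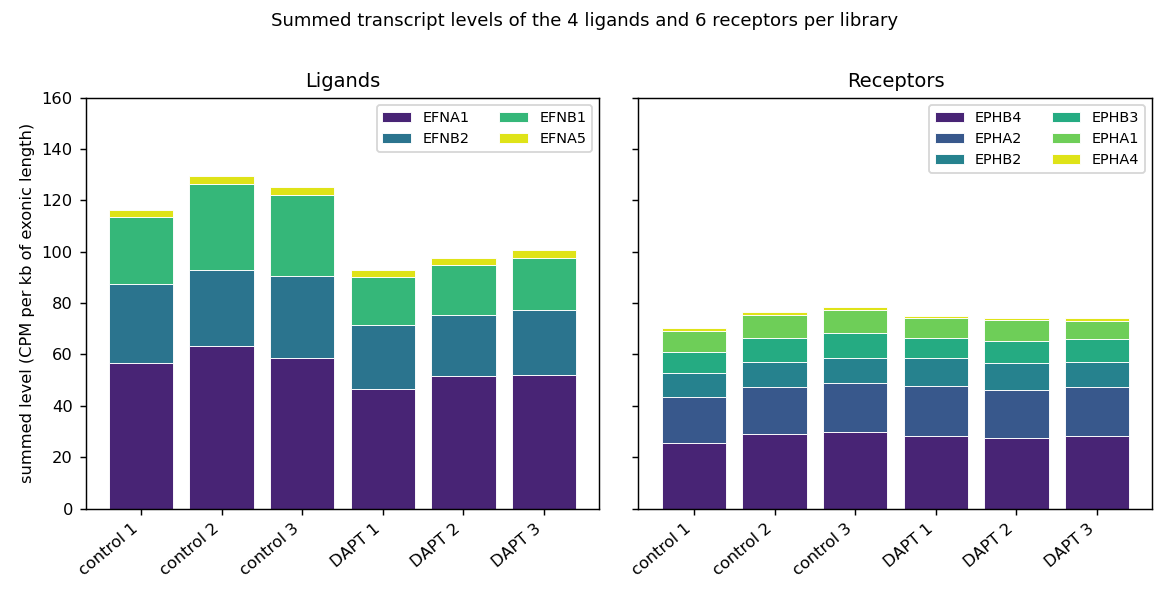
Summed level per library in CPM per kilobase of exonic length (y axis, from 0) of the 4 ligands and of the 6 receptors, stacked by gene, in control replicates 1 to 3 and DAPT replicates 1 to 3. The ligand bars of the DAPT libraries reach 92.8 to 100.5 against 116 to 129 in the controls, whereas the receptor bars overlap at 70.3 to 78.5 and 74.2 to 75.0.

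Whether a pair of genes responded unequally was tested on their ratio within each library, in which library scaling cancels. With 3 libraries per group the exact two-sided permutation test cannot go below p = 0.1, and 8 pairs were compared, so this design cannot reach 0.05. The log2 ratio of *EFNB1* to *EFNB2* was -0.84, -0.44 and -0.60 in the controls and -0.99, -0.90 and -0.92 with DAPT, a mean shift of -0.31. The ephrin-B genes thus shifted against each other without overlap, with control replicate 1 nearest to the DAPT libraries. The receptor *EPHB4* gained on its ligand *EFNB2* by 0.32 on the log2 scale, and *EPHA2* gained on its ligand *EFNA1* by 0.31. Against *EPHA2*, the ratio of *EPHA1* shifted by -0.26 and that of *EPHA4* by -0.30. *EPHB2* shifted by 0.19 and *EPHB4* by 0.10 against *EPHB3*, which became 0.094 and 0.037 without DAPT replicate 1. In these 7 pairs the groups did not overlap and the exact permutation p was 0.1, the smallest possible (0.114 after Benjamini-Hochberg adjustment over the 8 pairs). The pairs share genes and are not independent, and the ratios use the same counts as the calls above. How often other gene pairs separate in this way was not computed. Of single tested genes, 46.2% had groups without overlap. For *EFNA1* against *EFNA5* the shift of -0.09 had an exact permutation p of 0.3, with overlapping groups, and was -0.053 without DAPT replicate 1 and -0.14 without DAPT replicate 2.

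**Figure D4:**
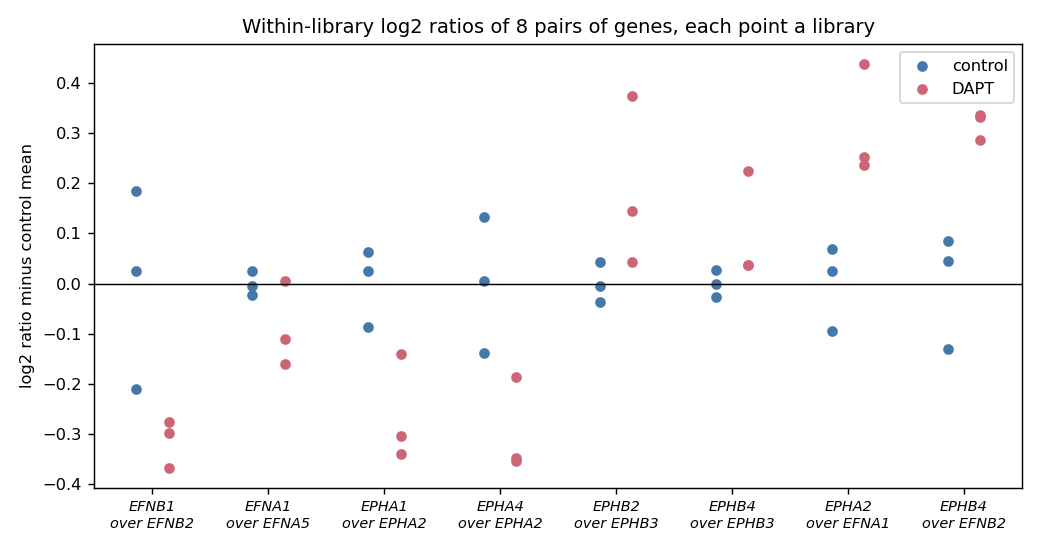
Log2 ratio of the counts of 2 genes in the same library, minus the mean of the 3 controls (y axis), for the 8 pairs, with each point a library. In 7 pairs the DAPT points lie to one side of all control points, and for *EFNA1* over *EFNA5* the groups overlap.

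Of the 12 other genes of the family, 5 passed the filter and 2 were called, both lower (40% of those tested, against 18% of all tested genes called lower and 35.2% in either direction). *EFNA3* encodes ephrin-A3, a lipid-anchored ligand. Its normalised counts were 5.41, 5.19 and 4.88 CPM in the controls and 3.50, 2.77 and 3.30 CPM with DAPT. The groups did not overlap, and the log2 fold change was -0.69 (SE 0.17, adjusted p-value 0.00249, edgeR with Benjamini-Hochberg). Because 43.9% of its exonic bases are shared with the readthrough gene *EFNA4-EFNA3* on the same strand, reads in those bases were not counted for it, and its 38 to 87 reads per library are a partial count. *EPHA3*, an ephrin-A receptor, had 5.41, 4.90 and 5.46 CPM in the controls and 3.24, 4.16 and 3.83 CPM with DAPT, from 50 to 87 reads. Its log2 fold change was -0.49 (SE 0.16, adjusted p-value 0.0209, edgeR with Benjamini-Hochberg). *EFNA4*, *EFNA3* and *EFNA1* are neighbours in this order on the forward strand of chromosome 1, and *EFNA4* was not called at 14.4 ± 1.67 CPM in the controls and 13.6 ± 0.995 CPM with DAPT (SD, n = 3 each). *EPHB6*, a receptor whose kinase domain is inactive, had a log2 fold change of -0.18 and an adjusted p-value of 0.36, and *EPHA10* had 0.51 with 0.333 at 5 to 12 reads per library (edgeR, Benjamini-Hochberg). *EPHA5*, *EPHA6*, *EPHA7*, *EPHA8*, *EPHB1*, *EFNA2* and *EFNB3* were below the filter.

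Around the family, 78 genes that carry or limit Eph and ephrin signals were examined, of which 73 were tested. With DAPT 18 of them rose and 13 fell, that is 42.5% were called against 35.2% of all tested genes, and their median log2 fold change was 0.06 against 0.01. Scaling by library size alone gave 27 higher and 10 lower. From each group up to 3 of the largest changes in each direction are named.

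Among adaptors and kinases of forward signalling, 5 of 21 tested genes rose and 1 fell (28.6% called, against 35.2% of all tested genes). *FYN*, a Src-family kinase recruited by Eph receptors, went from 7.33, 6.92 and 5.87 CPM to 10.3, 8.54 and 9.59 CPM (log2 fold change 0.49, adjusted p-value 0.00501, edgeR with Benjamini-Hochberg). *ABL2* and *ABL1*, tyrosine kinases that act on the actin cytoskeleton, rose by 0.20 and 0.18 on the log2 scale. *SHC1*, an adaptor that links receptor tyrosine kinases to Ras, went the other way, from 210.1, 219 and 225 CPM to 178, 173 and 177 CPM, with a log2 fold change of -0.31. In each of these genes the groups did not overlap.

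Genes of small GTPases, their regulators and the cytoskeleton were called most often, with 5 of 23 tested genes higher and 10 lower (65.2% called), and a median of -0.11 on the log2 scale. The largest falls were those of *CHN1*, the gene of a Rac-inactivating protein that acts downstream of EphA4, *NGEF*, the gene of the GTPase exchange factor ephexin-1, and *CDC42*, a small GTPase. *CHN1* went from 4.41, 2.81 and 2.65 CPM to 1.88, 1.53 and 1.69 CPM, a log2 fold change of -0.97 (adjusted p-value 0.003), which was -0.68 (adjusted p-value 0.0362) without control replicate 1 (edgeR, Benjamini-Hochberg). *NGEF* had a log2 fold change of -0.36. *CDC42* went from 158, 146 and 143 CPM to 116, 115 and 128 CPM, with a log2 fold change of -0.32. *RHOA* and *RAC1*, small GTPases that also act on actin, changed likewise, since *RHOA* fell by 16.7% and *RAC1* fell by 8.37%, and *CFL1*, the gene of the actin-severing protein cofilin, fell by 17.5%. Scaling by library size alone ended the call of *RAC1* (log2 fold change -0.08, adjusted p-value 0.186, edgeR with Benjamini-Hochberg) and kept those of *RHOA* and *CFL1*. These last 3 genes were named after their values were seen, and *RAC1*, *CDC42* and *CFL1* have processed pseudogenes with which reads can be shared. The largest rises were those of *ITSN2*, a scaffold with Cdc42 exchange activity, from 65.0, 60.6 and 62.8 CPM to 80.4, 83.4 and 81.5 CPM (log2 fold change 0.38), of *WASL*, the gene of the actin regulator N-WASP (0.20), and of *ARHGEF7*, a Rac and Cdc42 exchange factor (0.19).

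Partners of ephrin-B reverse signalling gave 4 higher and 0 lower genes among 11 tested (4 and 0 at an unadjusted p-value under 0.05 in edgeR, 1 and 0 with DESeq2, 3 and 0 with limma-voom), that is 36.4% called against 35.2% of all tested genes. *RGS3*, a regulator of G-protein signalling that binds ephrin-B through its PDZ domain, went from 25.5, 25.9 and 19.4 CPM to 30.7, 33.4 and 38.1 CPM, with a log2 fold change of 0.52 and an adjusted p-value of 0.000932 (edgeR, Benjamini-Hochberg). *PARD6B*, a polarity protein, and *DVL3*, a Dishevelled protein, rose by 0.26 and 0.16 on the log2 scale, with adjusted p-values of 0.0432 and 0.0419 (edgeR, Benjamini-Hochberg). Without control replicate 1 the adjusted p-value of *DVL3* was 0.0782, and 3 genes were higher and 1 lower.

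Of the genes that cut, dephosphorylate or ubiquitinate Eph and ephrin proteins, 18 were tested, 4 rose and 2 fell (33.3% called, against 35.2% of all tested genes). The 2 that fell encode gelatinases, secreted metalloproteases that can cleave Eph receptors and ephrins. *MMP9* went from 2.36, 2.60 and 3.22 CPM to 1.30, 1.24 and 1.38 CPM, a log2 fold change of -1.04 and the only called 2-fold change among the 73 tested genes. It had only 36 to 39 reads per control library and 17 to 20 per DAPT library. Its 95% interval, from -1.54 to -0.55 on the log2 scale, includes changes smaller than 2-fold. *MMP2* went from 82.9, 61.5 and 59.0 CPM to 39.0, 33.8 and 34.4 CPM, a log2 fold change of -0.93, which was -0.75 without control replicate 1, the library with high fibroblast markers. Among the rises were those of *CBLB*, a ubiquitin ligase of receptor tyrosine kinases (0.37), and of *NCSTN* (0.27), which encodes the nicastrin subunit of γ-secretase, the target of DAPT. *NCSTN* had 189, 202 and 196 CPM in the controls and 246, 233 and 228 CPM with DAPT. Its groups did not overlap, while *APH1A* and *PSENEN*, which encode other subunits and were named after their values were seen, had log2 fold changes of -0.15 and -0.26 with adjusted p-values of 0.0715 and 0.113 (edgeR, Benjamini-Hochberg).

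**Figure D5:**
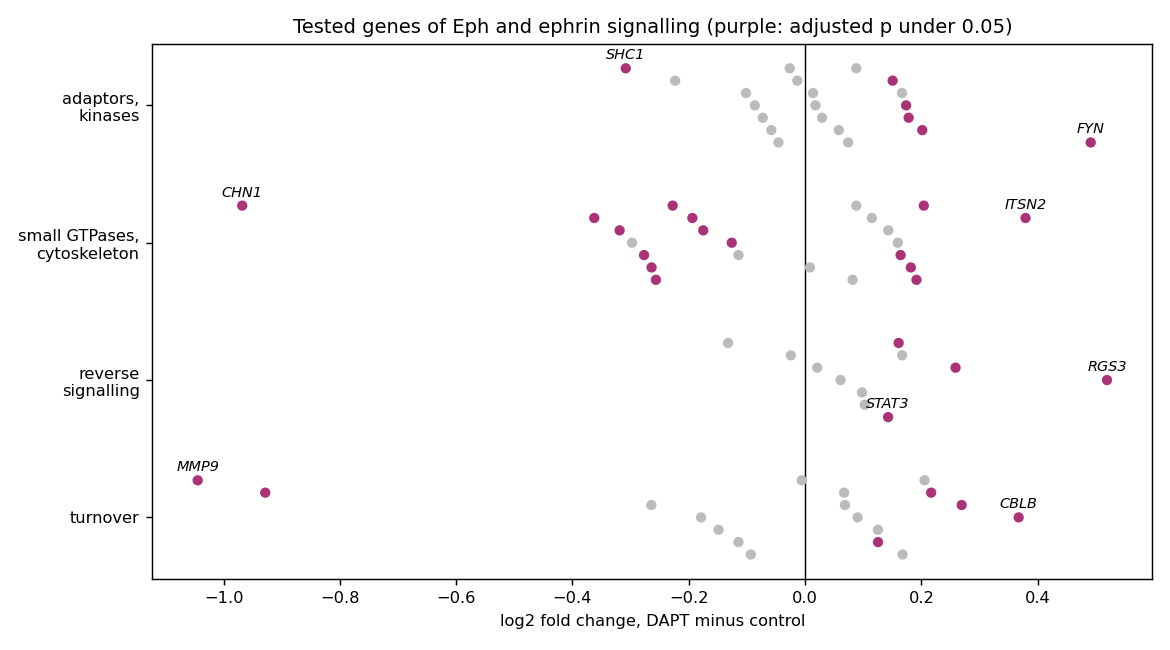
Log2 fold change, DAPT minus control (x axis), of the 73 tested genes in the 4 groups of signalling partners, with called genes in purple. The small GTPase and cytoskeletal genes hold 10 lower and 5 higher calls, the partners of reverse signalling 4 higher and none lower, and *MMP9* and *CHN1* lie farthest to the left.

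The genes whose levels followed those of *EFNB1* most closely over the 6 libraries were *PFKP*, *ANKRD9*, *SEMA4B*, *CDCA5* and *VARS1*, with Pearson r of log2 CPM between 0.997 and 0.999. The coefficients describe 6 points that fall into both treatment groups, and 1386 of 14196 genes compared had r above 0.9. The log2 fold changes of these 5 genes lay between -0.46 and -0.26.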

How the data were processed

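Total RNA was isolated from HSC-4 cells, and mRNA libraries were sequenced from 3 DAPT and 3 control samples. The authors deposited raw counts of reads per Ensembl gene for each library. Per the file headers these were made with featureCounts 1.6.3 on the Ensembl release 96 annotation of GRCh38, with strand setting 1, which counts reads on each gene's own strand. The paper names a directional kit whose reads usually need the opposite setting, but *EFNB2* had 1640 to 2475 reads per library and its overlapping gene on the other strand 5 to 14. The submitters' processing notes list Trim Galore, HISAT2, HTSeq and DESeq2, and the paper names edgeR. Reads mapping to several places or genes were not counted by the defaults. Symbols were matched for 58472 of 58884 identifiers.

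Groups and replicate numbers were read from the sample titles, dose and time from the series' design text and the vehicle from the paper. All 6 libraries (12276313 to 16317672 counts) entered edgeR 4.0.16 in R 4.3.3, with filterByExpr by group, TMM normalisation (factors 0.980 to 1.02), a robust quasi-likelihood fit and Benjamini-Hochberg adjustment over 15001 genes. Standard errors and 95% intervals were derived from the test statistic. Pair ratios used counts plus 0.5. DESeq2 1.42.0, limma-voom (limma 3.58.1), other filters and scalings, each library left out in turn and a replicate block were alternatives. The fit was tested on simulated data.

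The members, gene lists and tests were chosen with earlier results of these data known. Named are all members, the tested other family genes, the 3 largest called changes in each direction per partner list, *HES1*, *HEY1*, cell type markers, and the 5 genes of at least 1 CPM most correlated with the member of smallest p-value. Exceptions are marked, and some items of these lists are not reported here. Protein sequences were not used here.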

Additional observations from a re-analysis of the deposited data

How the results depend on the processing

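The falls of *EFNB1*, *EFNB2* and *EFNA1* were called in every alternative run, with log2 fold changes of -0.74 to -0.57, -0.35 to -0.27 and -0.28 to -0.20 over all fits. The number of lower members was 4, or 3 where *EPHA1* lost its call, and higher members numbered 0 except for 1 (*EPHB2*) under library size alone. The sign of *EPHB4* turned to 0.044 under library size alone and 0.00093 with limma-voom, and its log2 fold change ran from -0.066 to 0.038 when single libraries were left out. Signalling partners called higher numbered 18, but 7 at an adjusted p-value under 0.01, 12 with DESeq2 and 27 under library size alone. With single libraries left out this count ran from 8 to 21 (8 without control replicate 2, 9 without control replicate 3, 11 without DAPT replicate 1, 10 without DAPT replicate 3), and the cause was not tested. The direction of all 8 pair ratios was the same in each alternative. The labels do not say whether same-numbered control and DAPT libraries were handled together. The correlations of their deviations from the group means were -0.0194 to 0.0375 over 14197 genes, which cannot decide this. In both groups replicate 1 had the most counts, 16317672 in the controls and 15288370 with DAPT. The replicate block left 4 members lower, with *EFNB1* at -0.63 and 20 partners higher and 14 lower. Among the partners named, *RAC1* had an adjusted p-value of 0.0509 with the block (edgeR). Depth limits *EPHA4* most among the members and *EPHA10*, *EFNA3*, *EPHA3* and *EPHB6* among the other tested family genes, and the vehicle of the controls is uncertain.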
